A study of Mus musculus with 6 samples.

Results

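Of 6 RNA libraries made from whole mammary glands, 3 held more than 0.02% of their gene counts in Ttn, which encodes the giant sarcomere protein titin, and 3 held less. The libraries were chosen by their measured Ttn counts. Those above this threshold were Hpn-/- replicate 1, wild-type (WT) replicate 1 and Hpn-/- replicate 2, and those below it were WT replicate 2, WT replicate 3 and Hpn-/- replicate 3. The study set 3 WT against 3 Hpn-/- glands of virgin female FVB mice, to measure which transcripts change when hepsin, a transmembrane serine protease of epithelial cells, is disrupted by CRISPR/Cas9. WT replicates 1, 2 and 3 were taken at 2, 6 and 5 weeks of age, and Hpn-/- replicates 1, 2 and 3 at 6, 6 and 5 weeks. All libraries were made from total RNA of whole tissue after removal of ribosomal RNA, so every cell type of the dissected gland contributed. The labels do not name the gland that was taken or the disrupted exon.

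Skeletal muscle does not belong to the mammary gland, but muscle sheets lie next to it, under the skin and on the body wall. A muscle fibre is a multinucleate cell packed with sarcomeres, in which thick filaments of myosin pull on thin filaments of actin when calcium is released from the sarcoplasmic reticulum. Its genes are transcribed under the MyoD family, which binds E-boxes, together with MEF2 proteins and serum response factor, which bind MEF2 sites and CArG boxes. The gland itself consists of ducts of luminal and basal epithelium in a fat pad with fibroblasts, vessels, nerves and immune cells, and the mouse fat pad can hold brown-type fat cells that burn fatty acids in their mitochondria.

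The start regions of 4 muscle genes are printed, all of them markers used here for the muscle content of a library. Ttn was taken for printing as the most abundant sarcomere gene with a MEF2 match. Its MEF2 site was therefore a condition of the choice and not a finding. Each is a RefSeq promoter on GRCm38.p6, from 250 bases before to 50 bases after the transcription start, written 5′ to 3′ along the gene. Capitals mark E-boxes (CANNTG, which matches on both strands at once), MEF2 sites and CArG boxes. The latter 2 were searched on both strands, and no marked match overlaps another. Acta1 (skeletal alpha-actin, chr8:123894726-123895025, minus strand) holds 2 E-boxes and 1 CArG box. Ckm (muscle creatine kinase, chr7:19410844-19411143, plus strand) and Atp2a1 (the calcium pump SERCA1, chr7:126463024-126463323, minus strand) hold 1 E-box each. Ttn (chr2:76982498-76982797, minus strand) holds 1 MEF2 site and 1 E-box.
Acta1: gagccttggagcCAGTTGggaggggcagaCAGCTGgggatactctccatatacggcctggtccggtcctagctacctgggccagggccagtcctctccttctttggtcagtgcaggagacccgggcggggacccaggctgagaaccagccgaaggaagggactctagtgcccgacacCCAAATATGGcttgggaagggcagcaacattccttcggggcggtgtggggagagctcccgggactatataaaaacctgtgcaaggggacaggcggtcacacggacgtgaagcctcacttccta
Ckm: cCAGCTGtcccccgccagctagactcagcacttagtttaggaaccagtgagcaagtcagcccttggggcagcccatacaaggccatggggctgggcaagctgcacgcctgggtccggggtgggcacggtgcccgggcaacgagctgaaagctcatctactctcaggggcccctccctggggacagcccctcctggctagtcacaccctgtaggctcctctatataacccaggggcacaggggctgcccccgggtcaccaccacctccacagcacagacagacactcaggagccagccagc
Atp2a1: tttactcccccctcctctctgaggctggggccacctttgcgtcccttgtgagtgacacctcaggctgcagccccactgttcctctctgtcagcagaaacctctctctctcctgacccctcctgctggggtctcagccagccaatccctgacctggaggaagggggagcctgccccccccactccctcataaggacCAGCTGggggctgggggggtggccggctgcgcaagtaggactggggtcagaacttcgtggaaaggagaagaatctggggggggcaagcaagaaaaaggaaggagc
Ttn: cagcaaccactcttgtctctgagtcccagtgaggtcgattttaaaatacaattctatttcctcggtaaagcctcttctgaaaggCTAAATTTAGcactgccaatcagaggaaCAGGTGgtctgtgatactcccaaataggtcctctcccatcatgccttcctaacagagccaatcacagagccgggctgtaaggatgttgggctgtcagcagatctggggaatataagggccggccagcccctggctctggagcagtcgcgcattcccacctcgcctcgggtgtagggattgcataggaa
Among the 25 sarcomere genes with a promoter in the table, 28% held a MEF2 site, against 1.68% of the 9380 promoters of genes kept for analysis and 3.26% of all 27025 promoters. For CArG boxes the shares were 16%, 1.35% and 1.57%, and for E-boxes 80%, 62.9% and 72.1%. The 7 sarcomere genes with a MEF2 site were Ttn, Myh4, Speg, Xirp2, Myh1, Mylk4 and Alpk3. A match is a stretch of letters and not a measured binding site.

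Muscle content formed a gradient over the 6 libraries and no gap marked the threshold. In descending order, Ttn took 0.131%, 0.0593% and 0.0240% of all counts in Hpn-/- replicate 1, WT replicate 1 and Hpn-/- replicate 2, and 0.0152%, 0.00659% and 0.00138% in WT replicate 2, WT replicate 3 and Hpn-/- replicate 3. All values per library below are given in this order, the first 3 above and the last 3 below the threshold. The step across the threshold, from Hpn-/- replicate 2 (2844 Ttn counts) to WT replicate 2 (1671 counts), was 1.58-fold and the smallest of the 5 steps, whereas the step from WT replicate 3 to Hpn-/- replicate 3 was 4.79-fold. Since Ttn chose the libraries, the differences between them are described here without a test.

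The libraries summed to 10971661 to 18807615 counts, of which loci derived from ribosomal RNA took 78.0% to 84.3%, so 1798932 to 3071401 counts remained for all other genes. Hpn-/- replicate 1 had the lowest ribosomal share and a TMM scaling factor of 1.24, against 0.914 to 1.01 in the others. Hpn itself was counted 4 to 12 times per WT library and 3 to 5 times per Hpn-/- library, too few to check the genotype labels. Epithelial, fat, nerve and endothelial markers were counted in every library, among them Epcam at 37 to 94 counts and Adipoq at 846 to 1690 counts. Both genotypes stood on each side of the Ttn threshold, but age did not. The 2 week library was above it and both 5 week libraries were below it, and of the 6 week libraries the 2 Hpn-/- ones were above and the WT one below. Age and Ttn class therefore cannot be told apart within a genotype, nor genotype and Ttn class among the 6 week glands, and the older libraries were the low ones in WT and the high ones in Hpn-/- glands.

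The sarcomere genes carried the gradient. Acta1 stood at 177, 121 and 47.9 CPM (read counts made comparable between libraries by depth and TMM factors) above the threshold and at 21.3, 9.14 and 0.991 CPM below it, a difference of 4.05 between the class means of log2 CPM. Myh4, the fastest myosin heavy chain, stood at 446, 280 and 104 CPM against 40.7, 21.6 and 9.62 CPM, a log2 difference of 3.51. Both followed the order of Ttn without exception, and so did nebulin (Neb, log2 difference 3.20) and fast troponin T (Tnnt3, 3.74). Actn3, the alpha-actinin of fast fibres, had the largest log2 difference on the muscle lists at 4.57, with 41.4, 24.8 and 10.7 CPM against 1.91, 0.923 and 0.233 CPM. Of 35 sarcomere genes kept by the count filter, 33 had higher class means in the libraries above the threshold and 24 had no overlap between the classes, with a median log2 difference of 2.59, or 1.61 with no count filter. Over all 12520 genes kept, 5.58% were higher without overlap, 6.83% lower without overlap, and the median log2 difference was -0.002.

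Calcium handling followed in the same way. Atp2a1 stood at 141, 85.7 and 30.7 CPM above the threshold and at 14.3, 5.62 and 1.17 CPM below it (log2 difference 3.91). Parvalbumin (Pvalb), the calcium buffer of fast fibres, differed by 3.94 and the calcium release channel Ryr1 by 3.40. Of 16 calcium and excitation genes kept, 14 were higher and 11 did not overlap, with a median of 2.18, or 1.14 with no count filter.

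**Figure D1:**
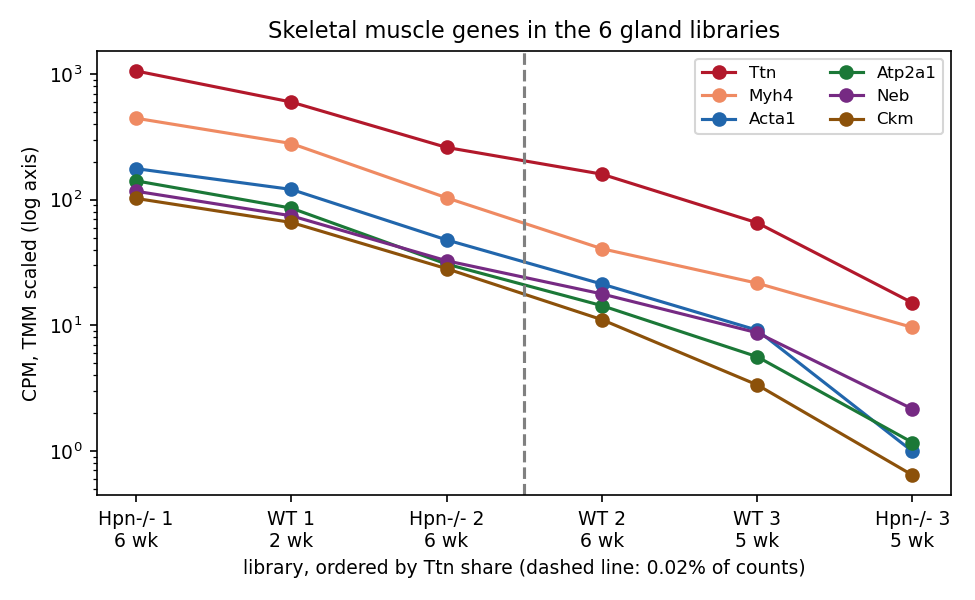
CPM after TMM scaling (log axis) of 6 skeletal muscle genes in the 6 libraries, ordered by Ttn share, with the age of each animal and the 0.02% threshold as a dashed line. Each line is a gene, and all 6 descend in the same order, Ttn from 1059.9 to 15.1 CPM and Acta1 from 177 to 0.991 CPM, with no break at the threshold.

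Genes of muscle energy supply split. Ckm, which regenerates ATP from creatine phosphate, stood at 102, 65.9 and 28.2 CPM against 11.1, 3.36 and 0.641 CPM (log2 difference 4.20), and the glycogen phosphorylase of muscle, Pygm, differed by 2.96. The insulin-regulated glucose transporter Slc2a4 (-0.04) and glycogen synthase Gys1 (-0.19), which fat cells also use, had overlapping classes. Ucp3, a mitochondrial carrier of muscle and brown fat, was lower without overlap, at 13.0, 13.1 and 16.1 CPM against 16.9, 20.6 and 20.6 CPM, and so was Fbp2, the muscle isoform of fructose bisphosphatase (log2 difference -1.16). Of the 17 genes kept on this list 10 were higher, and 6 were higher and 2 lower without overlap, with a median of 0.36, which was 0.12 without Hpn-/- replicate 1, 0.68 without Hpn-/- replicate 2 and 0.59 without WT replicate 3. Of 9 muscle regulators and maintenance genes kept, 6 were higher and 1 had no overlap, the translation factor Eef1a2 at 3.61.

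The 4 muscle lists hold 177 symbols, of which 174 were in the table and 77 passed the count filter, and 11 had no count in any library. The filter favours genes that are high in one class, since 12 of the 77 reached its level of 0.831 CPM in no library below the threshold, whereas 37 reached it in all 3. Of the 77, 42 were higher and 2 lower without overlap. Markers of satellite cells, the stem cells of muscle, were near 0 on both sides. Pax7 had 1 count in all 6 libraries together, Myf5 had 0, and Cdh15 had 1 count in each of 3 libraries.

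The muscle transcripts were those of fast fibres. Myh4 had 12657 counts over the 6 libraries and the other fast chains Myh1 and Myh2 had 424 and 172. Fast troponins Tnnt3 and Tnni2 had 1699 and 661 counts, against 17 and 6 for the slow forms Tnnt1 and Tnni1. The slow myosin chain Myh7 had 48 counts in the 2 week WT replicate 1 and 0 in each of the other 5 libraries. Myh2 made up 0.463% and 0.515% of the Myh1, Myh2 and Myh4 counts in Hpn-/- replicates 1 and 2, and 2.35% to 3.75% in the other 4 libraries. These chains are close paralogues whose reads can be shared, so the split between them is uncertain.

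Outside the muscle lists few genes differed by as much. Of 12443 such genes, 33 were higher and 12 lower by at least 2-fold without overlap, while over all genes kept 0.559% and 0.104% met these limits. With a mean of at least 1 CPM and a gene name, 21 of the higher and 8 of the lower genes remained, and all of them are described below. By leaving out a library the count of higher genes moved most without WT replicate 1 (120), WT replicate 2 (85) or Hpn-/- replicate 3 (54). The count of lower genes was 103, 28 and 30 without these, and 19 without Hpn-/- replicate 1 or 2. At any size of difference, 656 of these genes (5.27%) were higher and 853 (6.86%) lower without overlap. Over all genes kept the shares were 5.58% and 6.83%, so genes off the muscle lists stood near the general share. With any 1 library left out these counts were 1124 to 1800 and 1129 to 2058, above 1.5 times for every library except WT replicate 3 among the lower genes. With fewer libraries in a class the no-overlap limit is easier to meet. Such counts can therefore rise whichever library is left out.

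Spp1 (chromosome 5, 104435118 to 104441050) had the largest difference among the named genes off the muscle lists. It encodes osteopontin, a secreted phosphoprotein of matrix and inflammation, and stood at 16.9, 3.99 and 8.62 CPM above the threshold and at 2.10, 1.76 and 1.46 CPM below it, a log2 difference of 2.16. Its order within the high class was not that of Ttn, as the 2 week WT library was the lowest of the 3. Its reads may be shared with the predicted gene Gm42793 on the same strand.

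The other higher genes have varied roles and were picked by their gap, not as a group. Scara5 (chromosome 14, 65666403 to 65764826), a ferritin receptor that marks a class of fibroblasts, stood at 24.0, 17.7 and 29.3 CPM against 13.2, 10.99 and 9.32 CPM (log2 difference 1.06). Pamr1, a secreted protein first linked to muscle regeneration, stood at 5.68, 2.35 and 6.24 CPM against 1.15, 1.51 and 1.46 CPM (1.58). In both genes Hpn-/- replicate 2 was the highest library, although its Ttn level was 261 CPM, against 1059.9 CPM in Hpn-/- replicate 1. Smpd3, a neutral sphingomyelinase, differed by 1.17, the basement membrane protein gene Hmcn2 by 1.04, the collagen gene Col8a1 by 1.01 and the membrane protein gene Lrrn4cl by 1.15. The scavenging chemokine receptor Ackr2 differed by 1.29, the opioid precursor gene Penk by 1.19, the aminopeptidase gene Lvrn by 1.24, the cytoskeletal gene Ahnak2 by 1.15 and the Wnt pathway gene Dact2 by 1.09.

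Some of the higher genes are known from epithelium, although on the epithelial lists Krt8 had a lower mean above the threshold (-0.26). Krt5, the keratin of basal cells, stood at 1.65, 1.21 and 3.39 CPM against 0.765, 0.923 and 0.408 CPM (log2 difference 1.33). The milk protein gene Csn3 differed by 1.06, the tight junction gene Cgn by 1.19, the interleukin-17 receptor family gene Il17re by 1.02 and Duoxa1, a maturation factor of the dual oxidases, by 1.46. Csn3 and Cgn cleared the overlap limit only narrowly, Csn3 with 7.06 CPM in the lowest library above the threshold and 6.98 CPM in the highest below it. The heat shock gene Hspa1b differed by 1.08, but it shares reads with its near-identical copy Hspa1a.

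Tropomyosin and spectrin genes made up the rest. Tpm2 stood at 37.3, 29.6 and 11.8 CPM against 9.65, 7.55 and 5.07 CPM (log2 difference 1.69), and Tpm1 at 67.7, 50.5 and 28.2 CPM against 21.98, 19.4 and 19.8 CPM (1.17). Both encode tropomyosins of the thin filament, which smooth muscle and other cells also make, and for that reason were not on the skeletal muscle lists. The spectrin gene Sptb differed by 1.02.

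**Figure D2:**
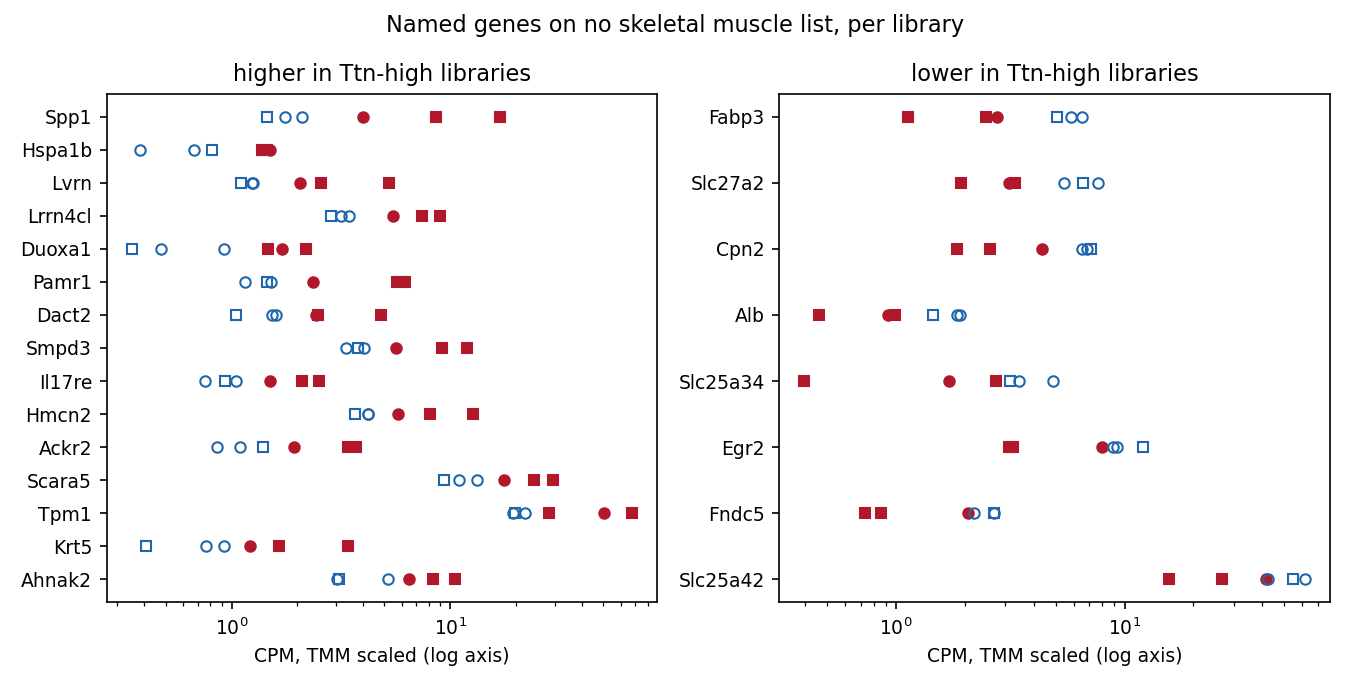
CPM after TMM scaling (log axis) per library of the 15 higher and 8 lower genes with the widest gap between the classes. Filled red symbols are libraries with Ttn above 0.02%, open blue symbols those below, circles are WT and squares Hpn-/- libraries. Scara5 lies between 17.7 and 29.3 CPM above the threshold and between 9.32 and 13.2 CPM below it, and the gaps of Slc25a42 and Fndc5 are narrow.

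The 8 lower genes included several of fatty acid handling. Fabp3 (chromosome 4, 130308595 to 130315463), a fatty acid binding protein of heart, muscle and brown fat, stood at 1.12, 2.78 and 2.48 CPM above the threshold and at 5.83, 6.54 and 5.07 CPM below it, a log2 difference of -1.47. Slc27a2, a fatty acid transporter and acyl-CoA synthetase, stood at 1.92, 3.13 and 3.30 CPM against 5.45, 7.63 and 6.59 CPM (-1.22). Slc25a42, the mitochondrial carrier of coenzyme A, stood at 15.6, 41.8 and 26.6 CPM against 42.4, 61.5 and 54.7 CPM (-1.01), so its 2 week library nearly touched the low class. Slc25a34, a carrier of the same family, differed by -1.44. Without Hpn-/- replicate 1 the difference was -0.64 for Slc25a42 and -0.74 for Slc25a34. Fndc5, the precursor of irisin, differed by -1.08. The plasma protein genes Cpn2 and Alb differed by -1.27 and -1.05. Egr2, a transcription factor of Schwann cells and immediate early response, differed by -1.17, with 3.24 and 3.12 CPM in Hpn-/- replicates 1 and 2 against 7.97 to 12.1 CPM elsewhere. Fabp3 and Slc27a2 overlap annotated genes on the opposite strand.

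The same direction held for fatty acid oxidation as a list. All 18 genes kept had lower class means above the threshold and 15 did not overlap, with a median log2 difference of -0.55. Of all 12520 genes kept, 6.83% were lower without overlap. Slc25a20, which carries acylcarnitines into mitochondria, stood at 19.03, 23.0 and 20.3 CPM against 33.0, 37.8 and 35.2 CPM (-0.76). Hadha, the alpha subunit of the trifunctional protein, stood at 117, 150.4 and 136 CPM against 180.4, 233 and 226 CPM (-0.66). The fatty acid uptake receptor Cd36, the most abundant on the list, differed by -0.02 with overlapping classes. The list summed to 920 to 1092 CPM above and 1252 to 1539.6 CPM below the threshold.

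The mitochondrial lists stood lower as well. All 33 nuclear genes of oxidative phosphorylation had lower means, 19 without overlap, with a median of -0.43. The share lower without overlap among all genes kept was 6.83%. Atp5b, the beta subunit of ATP synthase, stood at 247, 299 and 256 CPM against 310.3, 409.7 and 394 CPM (-0.47), and Uqcrc1, a core subunit of complex III, differed by -0.65. Of 17 citrate cycle genes 15 had lower means and 8 did not overlap, with a median of -0.43. Of the 13 mitochondrially encoded proteins 7 passed the filter, and all 7 had lower means, 5 without overlap, with a median of -0.42. Skeletal muscle also expresses these genes, and its part in their counts was not tested.

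Brown fat genes stood lower as a list, with scores that did not overlap, while single genes did. The brown fat list had 15 of 17 genes with lower means and 7 without overlap, against 6.83% of all genes kept. Its median was -0.77, with summed levels of 287 to 414 CPM against 496 to 649 CPM. Ucp1, the uncoupling protein that defines brown fat, stood at 136, 87.7 and 203 CPM above the threshold and at 249.65, 289.96 and 187 CPM below it, so its classes overlapped. Cidea, a lipid droplet protein, stood at 46.4, 64.1 and 53.1 CPM against 72.9, 100.15 and 94.3 CPM. Pdk4, a kinase that turns cells from glucose to fat use, was also lower without overlap (-0.89), but it is not on the brown fat list. It belongs to the list of glucocorticoid and FoxO targets, of which 15 of 22 genes had higher means, with a median of 0.20. Brown fat and fatty acid oxidation transcripts moved together with the Ttn class, and the part of the one in the other was not tested. In whole tissue, fewer cells of a type and less RNA per cell cannot be told apart. White fat genes went both ways, 9 higher and 16 lower of 25, with a median of -0.10 (-0.17 to -0.0212 with 1 library left out) and overlapping list scores.

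**Figure D3:**
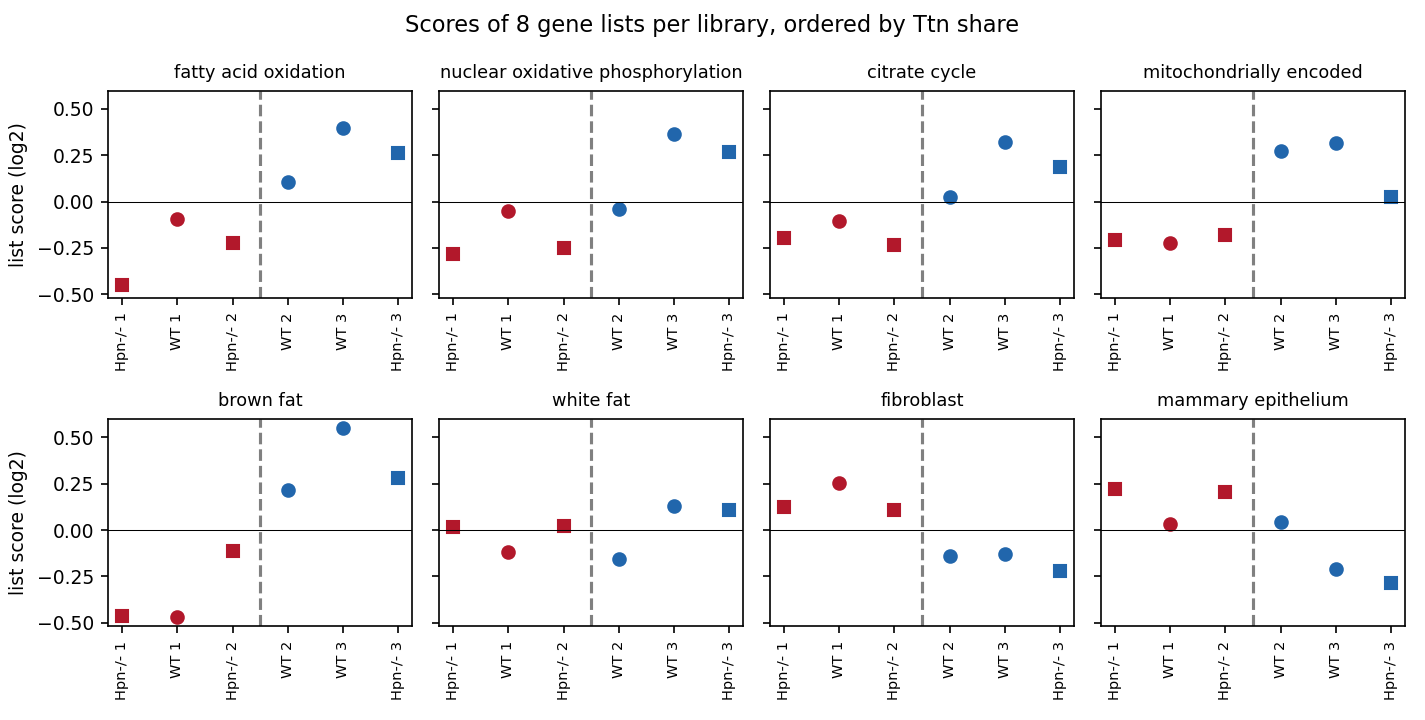
Score of 8 gene lists in the 6 libraries ordered by Ttn share. For each member the mean of its log2 CPM over the libraries was subtracted, and the score averages the members. Red symbols are libraries above and blue below the 0.02% threshold, circles WT and squares Hpn-/-. The fatty acid oxidation scores run from -0.45 to -0.10 above and from 0.11 to 0.40 below the threshold, while those of white fat and mammary epithelium overlap.

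Most but not all fibroblast genes stood higher above the Ttn threshold. Of 18 fibroblast markers 14 had higher means there and 9 did not overlap, with a median log2 difference of 0.42. Among all genes kept, 5.58% were higher and 6.83% lower without overlap. The 4 with lower means were Pcolce (-0.33), Pdgfra (-0.10), Fbn1 (-0.04) and Ly6a (-0.0016), all with overlapping classes. Cd34 (0.03) and Thy1 (0.01) hardly differed. Dcn, the small proteoglycan decorin, stood at 97.1, 73.9 and 89.9 CPM against 60.1, 52.0 and 46.4 CPM (0.72). Dpt, the matrix protein dermatopontin, stood at 58.9, 54.1 and 55.9 CPM against 35.6, 36.5 and 38.5 CPM (0.61). Pi16 and Dpp4, which mark fibroblasts of connective tissue planes, differed by 0.52 and 0.57, and Pcolce2, an enhancer of procollagen processing, had the largest difference on the list at 0.83. The list of collagen synthesis held 8 collagen chains and 16 genes such as those of lysyl and prolyl hydroxylases and lysyl oxidases. This list had 20 of 24 lower means, 1 of these without overlap, near the share among all genes kept. Its median of -0.26 was -0.53 without WT replicate 1, -0.14 without Hpn-/- replicate 1 and -0.12 without Hpn-/- replicate 2. Col3a1 stood at 806, 1637 and 934 CPM against 1169, 1421 and 1249.8 CPM, so the 2 week WT library was the highest of all 6 and the other 2 libraries above the threshold were the lowest.

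Epithelial lists were higher by smaller amounts. Of 24 luminal and general mammary epithelial genes 19 had higher means and 6 did not overlap, with a median of 0.34 and overlapping list scores. The share higher without overlap among all genes kept was 5.58%. Esr1, the estrogen receptor, stood at 22.9, 23.7 and 22.9 CPM against 14.1, 18.4 and 19.5 CPM (0.43). The 5 genes with lower means included Areg (-0.84), Pgr (-0.74) and Krt8 (-0.26), all with overlapping classes. Of 11 basal genes 8 were higher and 3 did not overlap, with a median of 0.38, which was 0.11 without Hpn-/- replicate 1 and 0.13 without WT replicate 3. Of 16 skin genes 1 passed the filter, Sbsn, which was higher without overlap (0.91) and overlaps another gene on the same strand. Lists of endothelium (-0.19), T and NK cells (0.20), macrophages (0.10), Schwann cells (-0.07), cell cycle (-0.41) and ribosomal proteins (0.11) had overlapping scores. With 1 library left out the medians ran from -0.39 to -0.15 for endothelium, -0.0654 to 0.39 for T and NK cells, -0.0074 to 0.24 for macrophages, -0.22 to 0.052 for Schwann cells, -0.61 to -0.12 for cell cycle and 0.08 to 0.17 for ribosomal proteins.

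**Figure D4:**
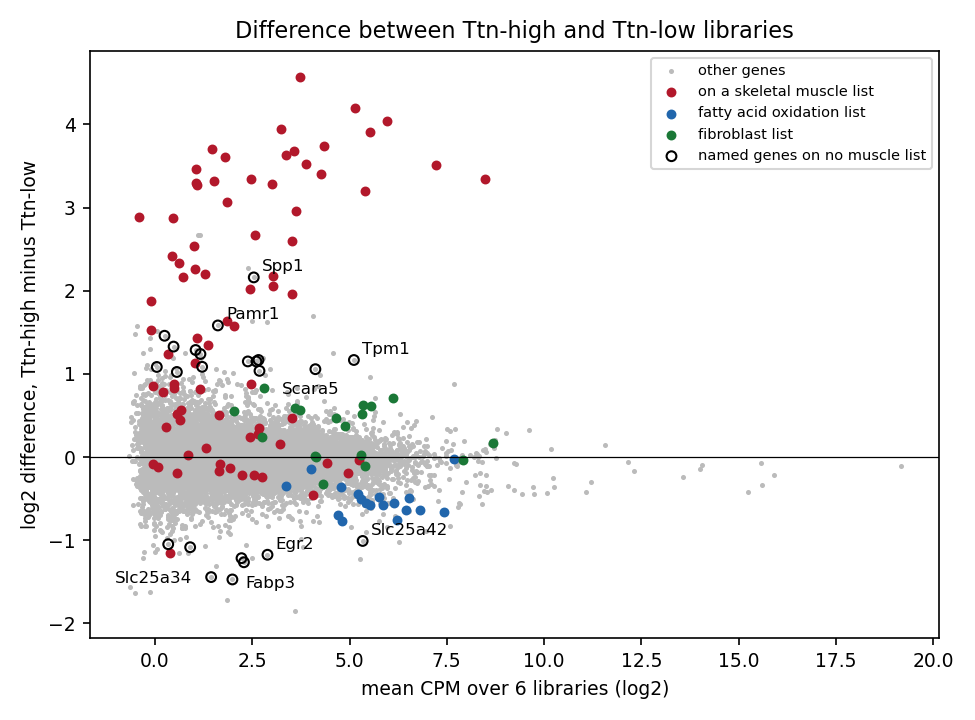
Difference of class means of log2 CPM (libraries with Ttn above minus below 0.02%) against mean CPM on a log2 scale for the 12520 genes kept. Red points are genes on a skeletal muscle list, blue the fatty acid oxidation list, green the fibroblast list, and circles the 15 higher and 8 lower named genes on no muscle list. Muscle genes reach a difference of 4.57, fatty acid oxidation genes lie between -0.76 and -0.02, and fibroblast genes mostly above 0.

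Hpn-/- replicates 1 and 2, of one genotype and age and both above the threshold, showed how closely other genes tracked muscle itself. Ttn was higher in replicate 1 by 2.02 on the log2 scale and the muscle lists had a median difference of 1.40. Tpm2 and Tpm1 were higher by 1.64 and 1.26 and Spp1 by 0.96. Scara5 (-0.29), Pamr1 (-0.13) and Ackr2 (0.12) differed little or the other way, and the fibroblast list had a median of 0.09. Dact2 was higher (0.92), whereas Lvrn (-0.98) and Krt5 (-0.98) were lower. Of the 8 lower genes, Slc25a34 (-2.41), Fabp3 (-1.04), Slc25a42 (-0.76), Slc27a2 (-0.74) and Cpn2 (-0.44) were lower in replicate 1. Egr2 (0.05), Fndc5 (0.19) and Alb (0.91) were not. Fatty acid oxidation genes had a median of -0.26, brown fat genes -0.20 and nuclear oxidative phosphorylation genes 0.01, against -0.02 over all genes kept. These are 2 single libraries, so the differences have no replicate check.

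Within each genotype the classes also differ in age, in opposite directions, and some lists kept their sign in both. All 18 fatty acid oxidation genes were lower above the threshold in WT (median -0.37) and in Hpn-/- glands (median -0.65), and 29 of 33 nuclear oxidative phosphorylation genes were (medians -0.25 and -0.49). Brown fat genes had medians of -0.92 and -0.69 and fibroblast genes of 0.44 and 0.37, the latter with 11 of 18 genes higher in both genotypes. Among all 12520 genes, 2914 were higher in both genotypes, 3112 lower in both and 6494 went opposite ways. Collagen synthesis genes were of the last kind, with 22 of 24 genes opposite, among them 7 of the 8 collagen chains, and medians of 0.28 in WT and -0.52 in Hpn-/- glands. The difference between the genotypes in these values was not tested.

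**Figure D5:**
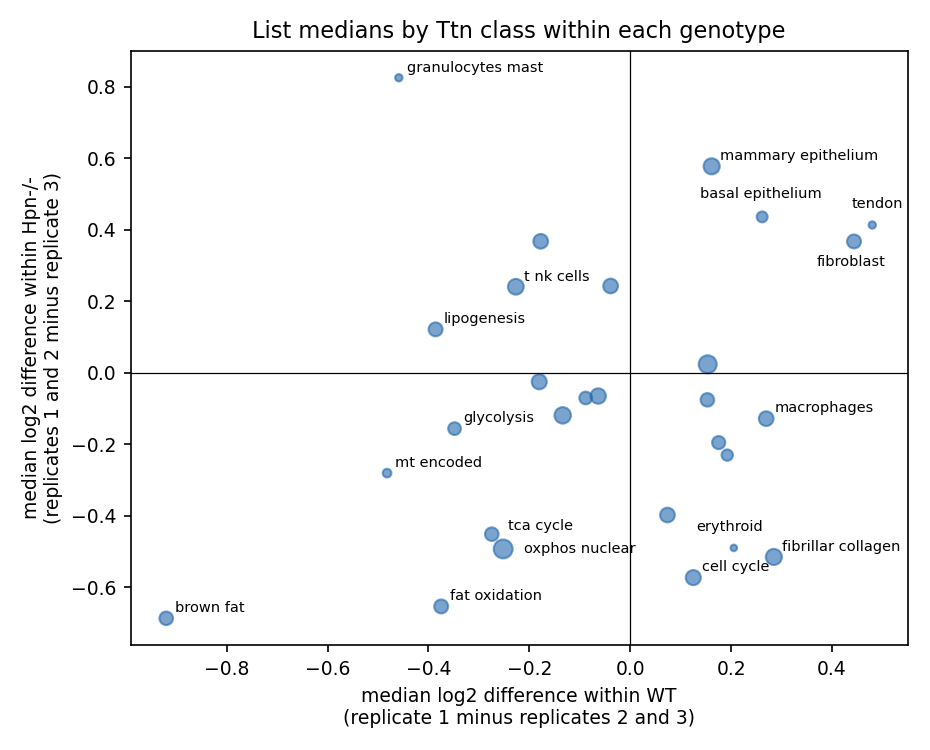
Median log2 difference between Ttn classes of each gene list within WT (x axis, replicate 1 minus replicates 2 and 3) and within Hpn-/- libraries (y axis, replicates 1 and 2 minus replicate 3), with symbol area proportional to the number of genes kept. The muscle lists and the skin list, with 1 gene, are left out. Brown fat (-0.92 and -0.69) and fatty acid oxidation (-0.37 and -0.65) lie low in both, fibroblast (0.44 and 0.37) high in both, and the collagen synthesis list (0.28 and -0.52, labelled fibrillar collagen) has opposite signs.

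The labelled contrast, Hpn-/- against WT, was set by genotype and not by Ttn, and could be tested. The muscle score, averaged over the 77 genes after subtracting from the log2 CPM of each its mean, was -0.0015 ± 0.930 in WT and 0.0015 ± 1.49 in Hpn-/- libraries (SD, n = 3 each), with p = 1 in an exact two-sided permutation test whose smallest possible p is 0.1. The difference lay between -0.709 and 0.738 when 1 library was left out. The score includes Ttn, which chose the libraries, and a p under 0.05 was out of reach. This test therefore cannot decide whether muscle content differs between the genotypes. No gene of the muscle lists and none of the named genes of the Ttn comparison passed edgeR's quasi-likelihood test. Errfi1 (log2 fold change 1.24, SE 0.17, adjusted p = 0.0212) and Sik1 (1.01, SE 0.15, adjusted p = 0.0231) passed and were higher in 3 of 3 Hpn-/- libraries, 0.016% of the genes tested, and none (0%) passed as lower, against 498 higher and 363 lower at an unadjusted p under 0.05. DESeq2 called 8 higher and 0 lower. In edgeR the number of higher genes was 0 when WT replicate 1, WT replicate 2 or Hpn-/- replicate 2 was left out, 1 without Hpn-/- replicate 1 and 4 without WT replicate 3, and without Hpn-/- replicate 3 it was 89, with 111 lower. That set held 10 of the genes off the muscle lists named in the Ttn comparison. Without Hpn-/- replicate 3, both remaining Hpn-/- libraries were above the Ttn threshold, so genotype and Ttn class were largely mixed. With age as a covariate no gene was called in either direction. Both called genes had overlapping Ttn classes, and Errfi1 overlaps a gene on the opposite strand.

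With the muscle score as a covariate, edgeR called 9 genes higher and 2 lower. Errfi1 kept its fold change (1.23, adjusted p = 0.000203) and Sik1 its own (1.01, adjusted p = 0.00246). Spp1 then passed at a log2 fold change of 1.45 (adjusted p = 0.00459), against 1.73 (SE 1.04, adjusted p = 0.862) without the covariate, but with the Ttn class as the second term it was at 0.96 and did not pass (adjusted p = 1.00). Ccn2, a matricellular growth factor, was at 1.92 (adjusted p = 0.0184) and the mTORC1 inhibitor gene Ddit4 at 1.37 (adjusted p = 0.0278). On the lower side Myh2 was at -2.10 (adjusted p = 0.00321) and the bicarbonate transporter Slc4a4 at -0.68 (adjusted p = 0.0195). Myh2 is itself 1 of the 77 genes in the score, and so is Ttn, which chose the libraries. Spp1 was picked by its gap between the Ttn classes. The adjusted p-values of Myh2 and Spp1 from these fits are therefore given as a description only. This fit leaves 3 residual degrees of freedom among the 6 libraries. With the Ttn class as the second term, Errfi1, Sik1 and Myh2 also passed. Like Spp1, Ccn2 (log2 fold change 1.85), Ddit4 (1.41) and Slc4a4 (-0.41) did not pass there.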

How the data were processed

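Reads were single-end, 75 bases long, from rRNA-depleted directional libraries run on a NextSeq500 instrument, per the labels' protocols. The authors deposited 1 table of raw read counts per gene. According to the submitters' processing notes, the tools included featureCounts, STAR 2.6.0c, Trimmomatic, bcl2fastq and DESeq2, and the genome build was GRCm38. The strand and multimapping settings were not given in the sources used here. Symbols and coordinates were taken from GENCODE on GRCm38, and promoters from RefSeq on GRCm38.p6.

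The Ttn share of each column total set the class of a library. Members and gene lists were chosen with earlier results of these data known. Genes were kept by filterByExpr (minimum count 10, minimum total 15), which left 12520 of 55450, scaled by TMM and expressed as log2 CPM with a prior count of 2 in R 4.3.3 with edgeR 4.0.16. Classes were compared without a test, since Ttn chose them. Genotypes were compared with edgeR's quasi-likelihood test with robust estimation, adjusted by Benjamini-Hochberg and called at an adjusted p under 0.05. Samples were grouped by the genotype in their labels. The labels do not say that the samples are separate animals, so a p-value here measures only how these samples spread, which may be technical. No pair of libraries within a genotype agreed within sampling noise.

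Named genes are the 4 fixed muscle markers, the 5 most abundant members of each muscle list, the 15 genes per direction on no muscle list with the widest gap between classes (at least 2-fold, at least 1 CPM, no predicted genes), of every other list the members of largest difference and highest level, and the genotype calls. The others were chosen after their values were seen. Since the strand setting is unknown, counts of genes that overlap another are uncertain, among them Ttn, Acta1, Ckm, Atp2a1, Neb, Tnnt3, Ryr1, Krt5, Csn3, Smpd3, Dact2, Duoxa1, Lvrn, Atp5b, Pcolce2, Col3a1 and Errfi1. Alternatives were RLE and upper quartile scaling, other prior counts, filters and fold minimums, DESeq2 1.42.0, covariates and leaving out libraries.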

Additional observations from a re-analysis of the deposited data

Results flagged for a closer look

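For 6 of 33 gene lists the score of every library above the Ttn threshold lay on one side of every library below it within WT, and on the opposite side within Hpn-/- glands. With 1 library set against 2 in each genotype such a pattern is easily met, so the count is no result about these lists. Among all 12520 genes kept, 6494 had differences of opposite sign in the 2 genotypes. The erythroid list kept 4 genes and the list of granulocytes and mast cells 5. The difference between the genotypes was not tested, and the libraries compared differ in age within each genotype. The score of collagen synthesis genes differed by 0.306 (above minus below the threshold) within WT and by -0.524 within Hpn-/- glands. The Schwann cell score differed by 0.178 and -0.480, and its member Ngfr, the low-affinity neurotrophin receptor, stood at 3.17 and 1.10 CPM in Hpn-/- replicates 1 and 2 against 13.3 to 20.5 CPM in the other 4 libraries. The erythroid score differed by 0.322 and -0.542, the circadian score by 0.156 and -0.0667, the T and NK cell score by -0.205 and 0.227 and the score of granulocytes and mast cells by -0.490 and 1.02.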

How the results depend on the processing

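Of 510 list medians under the alternatives 30 changed sign, in 12 lists. With 1 library left out, the median of granulocytes and mast cells lay between -0.047 and 0.498, of T and NK cells between -0.0654 and 0.395 and of erythroid genes between -0.332 and 0.0762. Erythroid genes changed sign also without Hpn-/- replicate 3 (0.0541). Without both libraries nearest to the threshold (an alternative chosen after seeing the data), T and NK cells (-0.0083) and glucocorticoid and FoxO targets (-0.10) changed sign. Counts of genes off the muscle lists at 2-fold or more depended on the settings. For higher genes (33) the count was 123 with no count filter, 20 with a prior count of 5, 157 at a minimum of 1.5-fold, 94 without both libraries nearest to the threshold, and 30 to 120 with 1 library left out. For lower genes (12) it was 64 with no filter, 112 at 1.5-fold, 39 without both nearest libraries, and 17 to 103 with 1 library left out. Leaving out libraries also makes the no-overlap limit easier to meet. The muscle median of 1.63 was 1.03 with no count filter, 2.69 without both nearest libraries and 1.34 to 2.36 with 1 library left out, and the fibroblast median 0.29 to 0.45. The medians of the brown fat (-0.89 to -0.62) and fatty acid oxidation lists (-0.66 to -0.45) kept their sign under every alternative run. The causes were not tested.

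Genotype calls were 2 higher and 0 lower. They were 3 and 1 with the Ttn class as a second term, 9 and 2 with the muscle score, 0 and 0 with age as a covariate, 76 and 24 with no count filter, 8 and 0 with DESeq2, and 0 to 89 higher and 0 to 111 lower with 1 library left out. Whether the replicate numbers pair the samples was not settled. The correlations of deviations were 0.167, 0.073 and 0.368 for replicates 1, 2 and 3, and both replicate 3 libraries were taken at 5 weeks. With the replicate block 8 genes were called higher and 1 lower and the Ttn log2 fold change was -0.0825. The muscle score difference lay between -0.709 and 0.738 with 1 library left out (-0.140 without WT replicate 2, -0.434 without WT replicate 3, -0.0686 without Hpn-/- replicate 2). Uncalled genotype log2 fold changes changed sign with the Ttn class as a second term for Ttn (-1.32), Acta1 (-1.34), Ckm (-0.90), Atp2a1 (-0.96), Duoxa1 (-0.22) and Tpm1 (-0.0652), and with the muscle score for Ttn (-0.17), Acta1 (-0.16) and Atp2a1 (-0.0043). With 1 library left out they ranged from -1.01 to 1.98 for Ttn, -1.11 to 2.31 for Acta1, -1.01 to 2.61 for Ckm, -1.24 to 2.54 for Atp2a1, -0.40 to 0.86 for Duoxa1, -0.19 to 0.99 for Dact2 and -0.38 to 0.90 for Tpm1, each lowest value being without Hpn-/- replicate 1. With 1798932 to 3071401 counts per library outside ribosomal RNA loci, genes near 1 CPM rest on few counts.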

Other observations

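Of 18 genes of fatty acid synthesis, 13 were highest in Hpn-/- replicate 1. Me1, the malic enzyme that supplies NADPH for lipid synthesis, stood at 223 CPM in Hpn-/- replicate 1 and between 38.2 and 55.5 CPM in the other 5 libraries. Elovl6, a fatty acid elongase, stood at 209 CPM there and at 66.7 to 104 CPM elsewhere, and Acaca, the carboxylase that makes malonyl-CoA, at 555 CPM against 269 to 369 CPM. Over the 18 genes of the list the median log2 difference between Ttn classes was -0.048 (-0.347 to 0.0512 with 1 library left out), while between Hpn-/- replicates 1 and 2, both 6 weeks old, it was 0.83 higher in replicate 1. These genes were picked after their values were seen, and a single library has no replicate check.

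All 15 glycolysis genes kept had lower class means above the Ttn threshold, 4 of them without overlap, against 6.83% of all genes kept. Their median log2 difference was -0.17 (-0.33 to -0.11 with 1 library left out), with overlapping list scores. Lyve1, a hyaluronan receptor of lymphatic vessels and some macrophages, stood at 8.39 and 3.85 CPM in Hpn-/- replicates 1 and 2 and at 17.0 to 18.8 CPM in the other 4 libraries.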
